A study of Arabidopsis thaliana with 18 samples.

Results

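The response of Arabidopsis thaliana wild-type (Col-4) seedlings to nitrate was read from RNA sequencing of nitrogen-starved seedlings and of starved seedlings that were then supplied with nitrate. The comparison holds 6 libraries of the 18 in the study, 3 of starved wild type and 3 of wild type after nitrate, chosen by their labels and by no measured value. The starved seedlings were 13 days old and had spent the last 3 days in medium without nitrogen. The nitrate group had the same age and the same starvation, and was then given 3 mM nitrate for a time that the labels give as 30 without a unit. Both groups were grown in liquid medium at 25 °C, so growth in liquid and the starvation are shared by both sides of the comparison. The other 12 libraries are wild type at 10 days without treatment and the T-DNA insertion mutant nlp2 in the same 3 conditions, with 3 libraries in each group. The response of the mutant was set beside that of wild type, and all 18 libraries, those of the mutant included, entered the fit behind the calls. No group was kept in starvation to the time labelled 30, so nitrate cannot be told apart from handling or elapsed time. Whole seedlings were used, and in such bulk samples fewer cells of a type and less RNA per cell cannot be told apart.

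In plants, nitrate is both a nutrient and a signal. It enters cells through transporters of the NPF and NRT2 families, is reduced to nitrite by nitrate reductase in the cytosol and to ammonium by nitrite reductase in the plastid, and the ammonium is built into glutamine and glutamate by glutamine synthetase and glutamate synthase. When nitrate reaches starved plants, NIN-like proteins (NLPs), which are transcription factors that bind nitrate-responsive elements, switch on genes for uptake, reduction and the supply of reductant and carbon skeletons, together with repressors that later limit the response. The quick change of these transcripts is known as the primary nitrate response.

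Each library held counts for 33602 gene models, between 14989800 and 25545031 counted reads and between 23418 and 23988 gene models with a read. Levels are given as CPM, counts per 1000000 counted reads on library sizes scaled with TMM, each value being 1 library in the order of replicates 1, 2 and 3. Calls of higher or lower were made where edgeR's quasi-likelihood test gave an adjusted p below 0.05, with Benjamini-Hochberg adjustment over the 21347 genes tested. Log2 fold changes are written with ± and their standard error. Whether the starved and nitrate libraries of a gene overlap is given as description, with no share over all genes beside it. For the largest rises and falls, no overlap was a condition of being named. The labelled tissue was checked with marker genes. The summed level of 8 leaf genes was 18900, 16600 and 19900 CPM in starved and 14900, 14900 and 16000 CPM in nitrate seedlings, and that of 10 root genes was 3960, 4170 and 3860 and 4050, 3560 and 3910 CPM, while 5 seed storage genes together stayed at or below 0.335 CPM. The leaf sum was lower in each nitrate library than in each starved library, and its part in the results was not tested. The first nitrate replicate stood apart. In it, 193 of 21347 genes were over 2-fold above both other nitrate libraries, 39 of them heat-shock genes, so results are given with and without that library.

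Nitrate was followed by a change in 4558 of 21347 genes (21.4%), 2387 called higher (11.2%) and 2171 called lower (10.2%), around a median log2 fold change of -0.000738. The shares of 11.2% and 10.2% are those to set beside each list count below. The rises were the larger changes. Among called genes, 892 were over 2-fold higher (4.18% of genes tested) and 319 over 2-fold lower (1.49%), and 284 were over 4-fold higher against 29 over 4-fold lower. The 2387 risers took 10.9%, 11.1% and 10.6% of the counted reads in the starved libraries and 20.3%, 19.9% and 19.9% in the nitrate libraries. The 2171 genes that fell went from between 11.9% and 12.5% to 6.99%, 7.66% and 8.0%. Both sets were picked by these same libraries, so the direction and separation of these shares follow from the selection. Of the risers, 2108 had a nitrate mean above all 3 untreated wild-type libraries, and of the fallers 1591 had one below all 3 (untreated seedlings were 10 days old, so age differs too). These genes were picked in part by their nitrate level, and no share over all genes stands beside the counts. Without nitrate replicate 1 the fit called 1987 genes higher (9.25%) and 1641 lower (7.64%). These hold 1898 of the 2387 risers and 1538 of the 2171 fallers, and none was called in the opposite direction. With upper-quartile scaling the split was 2010 higher and 2795 lower.

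Genes for the enzymes that reduce nitrate were higher. Of 12 tested genes for nitrate reduction and its cofactors, 8 were called higher and 0 lower (median 1.18), against 11.2% and 10.2% of all genes tested, and the counts were the same without nitrate replicate 1. NIR1 (AT2G15620, chr2:6810395-6812941 on the plus strand), the nitrite reductase of the plastid, was at 56.0, 73.8 and 74.7 CPM in the starved libraries and at 4140, 3820 and 4050 CPM after nitrate. It had the largest fold change among genes that carry a symbol and reach a mean of at least 5 CPM (5.88 ± 0.13, edgeR adjusted p = 2.58e-16, 58.7-fold), and the nitrate libraries also lay far above the untreated mean of 217 CPM. NIA1 (chr1:29235721-29239484, minus strand), one of the genes for nitrate reductase, went from 89.2, 98.3 and 114 to 1720, 1770 and 1810 CPM (4.14 ± 0.11, edgeR adjusted p = 2.68e-15). NIA2 (chr1:14158452-14161938, plus strand), the other one, started from a higher level, 652, 669 and 807 CPM, and reached 3540, 3110 and 3570 CPM (2.26 ± 0.14, edgeR adjusted p = 9.42e-10). In each of the 3 genes the nitrate libraries lay together and clear of the starved ones. Per length of transcript, NIR1 moved from rank 4368 to rank 15 among all genes (47.7 to 2590 TPM) and NIA2 from rank 391 to rank 41 (333 to 1490 TPM).

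Cofactor genes rose in part. UPM1, a methylase of uroporphyrinogen on the way to siroheme, the cofactor of nitrite reductase, went from 55.3, 58.0 and 64.6 to 1270, 1060 and 1200 CPM (4.31 ± 0.10, edgeR adjusted p = 9.81e-16). Whether counting used strand is not stated in the labels or headers, so reads of gene models that overlap on opposite strands cannot be told apart. This holds for 52 of the 199 genes given with values, among them UPM1, G6PD3, CLC-A, CLC-B, PGD1, TGA4, AMT1.1, NPF3.1, COL2 and HSP101. CNX1, CNX2 and CNX6, which act in the synthesis of the molybdenum cofactor of nitrate reductase, rose by log2 fold changes of 0.91, 1.25 and 1.1. The cofactor genes CNX3, CNX5 and CNX7, at -0.07, 0.10 and -0.17, and SIRB, which inserts iron into siroheme, at -0.05, were not called. HB1, a hemoglobin that removes nitric oxide, was at 22.6, 18.1 and 31.7 CPM and then at 123, 83.9 and 82.6 CPM (2.00 ± 0.23, edgeR adjusted p = 7.66e-06).

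**Figure D1:**
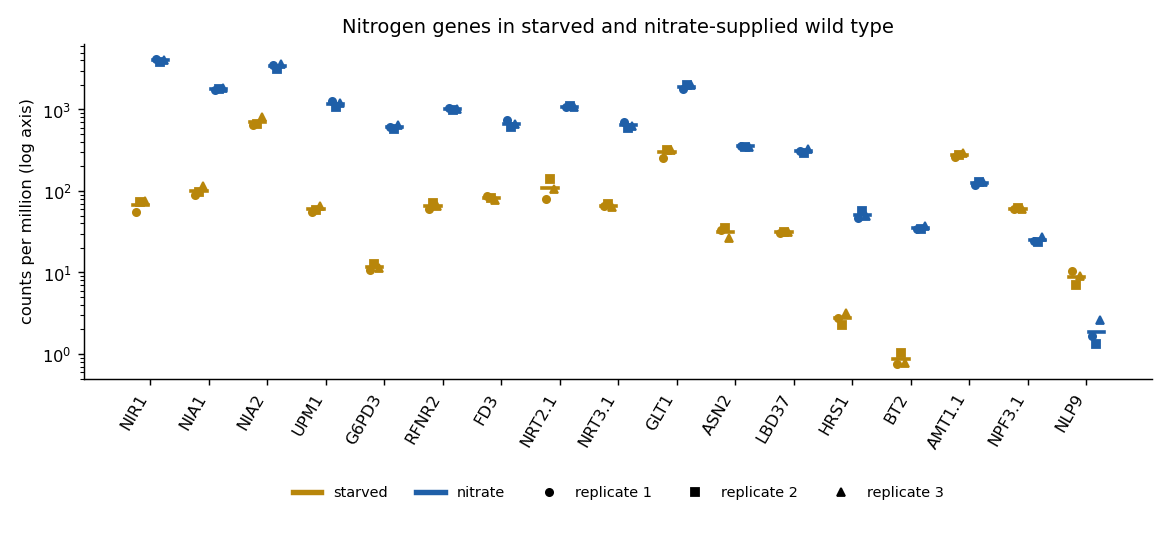
Levels (CPM) of 17 nitrogen genes in each wild-type library on a log axis, starved and after nitrate. Each point is 1 library, its shape gives the replicate and the horizontal bar is the mean of 3. The 3 nitrate libraries of NIR1 lie between 3820 and 4140 CPM and the 3 starved ones between 56.0 and 74.7 CPM, while AMT1.1, NPF3.1 and NLP9 lie lower after nitrate.

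Nitrate transporters moved in both directions. Of 26 tested members of the transport list, 13 were called higher and 6 lower (median 0.51). Without nitrate replicate 1, 13 were higher and 4 lower, and without starved replicate 3 the number lower was 3. NRT2.1, the main transporter of the high-affinity system, was at 79.5, 141 and 107 CPM in starved seedlings and 1080, 1090 and 1060 CPM after nitrate (3.3 ± 0.28, edgeR adjusted p = 2.06e-07). NRT3.1, the partner protein that NRT2 transporters need for activity, rose from 65.9, 69.2 and 63.6 to 696, 589 and 630 CPM (3.27 ± 0.12, edgeR adjusted p = 6.59e-13). NRT2.4, a high-affinity transporter known for its expression in starved roots, was at 13.6, 16.2 and 14.5 CPM and rose further to 76.0, 95.0 and 98.8 CPM (2.6 ± 0.13, edgeR adjusted p = 6.27e-11), where the untreated mean was 1.82 CPM. None of these genes had overlapping groups. NRT2.1 and its neighbour NRT2.2 are near-identical, and reads with equal hits were removed by the authors, so the split between them is uncertain.

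Transporters that act after uptake were also among the risers. CLC-B, an anion transporter of the CLC family, rose from 177, 199 and 192 to 632, 610 and 653 CPM (1.74 ± 0.08), and CLC-A, the exchanger that loads nitrate into the vacuole, from 54.6, 66.7 and 66.5 to 101, 103 and 117 CPM (0.78 ± 0.09). SLAH3, an anion channel that carries nitrate, went from 68.0, 69.7 and 69.6 to 144, 162 and 168 CPM (1.19 ± 0.14). The edgeR adjusted p-values of the 3 genes were 1.6e-11, 6.11e-06 and 3.33e-06, and in each all nitrate libraries were above all starved ones. NRT1.8, which takes nitrate out of xylem sap, was at 34.8, 30.2 and 25.2 CPM and then at 74.5, 85.5 and 82.5 CPM (1.43 ± 0.18). NRT1.7, which loads nitrate into the phloem of older leaves, rose by 1.27. Lower after nitrate were NPF3.1, a transporter of the NPF family, from 59.9, 61.2 and 59.5 to 24.4, 23.4 and 27.1 CPM (-1.27 ± 0.12, edgeR adjusted p = 2.47e-07), NAXT1, a nitrate efflux transporter, at -0.69, and NRT1.9, which acts in phloem of roots, at -0.59. NRT1.2, NRT1.5, which loads nitrate into the xylem, and the guard-cell channel SLAC1 were not called (-0.01, -0.08 and -0.18).

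Ammonium assimilation changed in some members. Of 15 tested genes 5 were called higher and 3 lower (median 0.04). The number lower fell whichever library was left out. It was 1 without nitrate replicate 1, 0 without starved replicate 1 or nitrate replicate 2 and 1 without each of the others. Over all genes the lower calls fell in these fits too, from 2171 to between 1553 and 1788. With all 18 libraries 3 were lower also with DESeq2 and with the replicate block, and 2 with RLE size factors. GLT1, the NADH-dependent glutamate synthase, rose from 251, 321 and 319 to 1790, 1970 and 1970 CPM (2.68 ± 0.17, edgeR adjusted p = 7.39e-10), while GLU1, the ferredoxin-dependent form of green tissue, was at 874, 956 and 1040 and 930, 868 and 1060 CPM and was not called (-0.01 ± 0.11). ASN2, an asparagine synthetase, went from 33.6, 34.7 and 26.2 to 359, 351 and 351 CPM (3.49 ± 0.12, edgeR adjusted p = 1.5e-13). GLN2, the plastid glutamine synthetase, was at 771, 727 and 810 CPM and then at 1170, 1090 and 1180 CPM (0.57 ± 0.11), still under its untreated mean of 1690 CPM. In GLT1, ASN2 and GLN2 every nitrate library was above every starved one.

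Reductant for nitrite reductase and glutamate synthase comes in non-green tissue from the oxidative pentose phosphate pathway in plastids, through ferredoxin and a root-type ferredoxin reductase. Of 27 tested genes of this list 10 were called higher and 1 lower (median 0.15), with the same counts without nitrate replicate 1. The rise was split by isoform. The plastid glucose-6-phosphate dehydrogenase G6PD3 (chr1:8609338-8612580, plus strand) went from 10.7, 12.7 and 11.3 to 607, 584 and 640 CPM (5.72 ± 0.10, edgeR adjusted p = 3.01e-17), and its plastid relative G6PD2 from 29.7, 31.3 and 33.5 to 323, 306 and 346 CPM (3.37 ± 0.11). G6PD1, the third plastid form, fell from 75.7, 71.5 and 81.0 to 51.6, 52.3 and 57.7 CPM (-0.50 ± 0.09, edgeR adjusted p = 0.000311). The ranges of starved and nitrate libraries did not overlap in any of them, and the cytosolic forms G6PD5 and G6PD6 were not called (-0.08 and 0.02).

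The same division was seen further along the chain. The 6-phosphogluconate dehydrogenase PGD1 rose from 72.7, 72.8 and 74.1 to 428, 444 and 457 CPM (2.6 ± 0.08) and PGD3 from 63.1, 69.4 and 64.9 to 892, 879 and 913 CPM (3.76 ± 0.08), whereas PGD2 was at 0.11 and was not called. RFNR2, a root-type ferredoxin reductase, went from 60.4, 71.8 and 66.1 to 1030, 986 and 1000 CPM (3.93 ± 0.13, edgeR adjusted p = 1.5e-13), and the root ferredoxin FD3 from 87.5, 81.7 and 76.5 to 736, 609 and 660 CPM (3.03 ± 0.11, edgeR adjusted p = 2.59e-13). The leaf ferredoxins FD1 and FD2 (-0.22 and -0.20) and the leaf-type reductases LFNR1 and LFNR2 (-0.13 and 0.11) were not called. Per length of transcript FD3 moved from rank 1075 to rank 58 (160 to 1210 TPM) and RFNR2 from rank 3142 to rank 91 (64.5 to 911 TPM). The transaldolase gene TRA2 and the transketolase gene TKL1, both of the part of the pathway that rearranges sugars, rose by 2.27 and 1.6. A gene annotated as a phosphoglycerate mutase (AT1G78050) was at 8.23, 8.01 and 7.23 CPM and reached 192, 157 and 189 CPM (4.52 ± 0.12, edgeR adjusted p = 3.97e-15), the fifth largest rise by the rule for named genes.

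Carbon skeletons for amino acids are supplied by phosphoenolpyruvate carboxylase and the organic acids made from its product. In that list 8 of 12 tested genes were called higher and 0 lower (median 0.86), and 7 were higher without nitrate replicate 1. PPC3, a root form of the carboxylase, went from 47.6, 76.7 and 55.1 to 299, 300 and 292 CPM (2.31 ± 0.16, edgeR adjusted p = 4.66e-09) and PPC2 from 351, 337 and 422 to 1170, 885 and 1090 CPM (1.5 ± 0.13), while PPC1 was at -0.21 and was not called. PPC1 was called lower under 4 of 16 alternatives, among them DESeq2 (adjusted p = 0.0289) and the replicate block (edgeR adjusted p = 0.0233). PPCK1, the kinase that activates the carboxylase, rose from 38.8, 42.6 and 36.5 to 151, 121 and 136 CPM (1.79 ± 0.09, edgeR adjusted p = 5.05e-11), and the second kinase, PPCK2, by 1.29. FUM2, the cytosolic fumarase that makes fumarate for storage, rose from 16.3, 18.4 and 20.6 to 55.1, 69.2 and 64.9 CPM (1.77 ± 0.19), and the mitochondrial FUM1 was not called (0.11). Every called gene named here had its 3 nitrate libraries above its 3 starved ones.

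Trehalose 6-phosphate is a signal of sucrose status. Of 16 tested genes of its metabolism 7 were called higher and 1 lower (median 0.21). Genes for phosphatases that remove it led the list. TPPB was at 2.68, 3.74 and 4.42 CPM in starved and 30.9, 28.6 and 35.7 CPM in nitrate seedlings (3.14 ± 0.17, edgeR adjusted p = 1.18e-10), and TPPJ at 18.1, 21.3 and 19.4 and 122, 81.0 and 99.5 CPM (2.36 ± 0.19, edgeR adjusted p = 3.54e-08). Among synthase-like genes TPS9 rose from 26, 23.8 and 26 to 65.0, 62.3 and 63.7 CPM (1.34 ± 0.11), and TPS5 fell from 60.1, 67.9 and 64.7 to 39.4, 39.6 and 43.5 CPM (-0.65 ± 0.08). In all of these the groups were apart. Without starved replicate 2 the number lower was 2. Markers of energy starvation were near the background, with 2 of 15 higher and 1 lower (0 lower without nitrate replicate 1). DIN10, a sugar-starvation marker, stood at 72.6, 81.3 and 111 CPM in starved and 76.2, 111 and 95.2 CPM in nitrate seedlings with overlapping groups.

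Transport of other nitrogen sources went mainly the other way. Among 16 tested genes for transport of ammonium, urea and amino acids, 1 was called higher and 6 lower (median -0.28), with 1 and 4 without nitrate replicate 1. AMT1.1, a main ammonium transporter of roots, fell from 264, 277 and 294 to 117, 130 and 130 CPM (-1.15 ± 0.11, edgeR adjusted p = 3.56e-07) and AMT1.2 from 126, 153 and 142 to 73.0, 69.4 and 75.4 CPM (-0.95 ± 0.09, edgeR adjusted p = 3.5e-07). AMT1.3 fell by 1.33 on the log2 scale, and the proline transporter gene PROT2 went from 22.6, 18.5 and 17.5 to 12.9, 14.0 and 12.8 CPM (-0.56 ± 0.12). Starved and nitrate libraries were separate in AMT1.1, AMT1.2 and PROT2. The list's only riser was AAP6, an amino acid permease (0.39 ± 0.09), and the urea transporter DUR3, typical of starved roots, was not called (-0.34 ± 0.14, edgeR adjusted p = 0.0972). DUR3 was called lower under 6 of 16 alternatives, among them the replicate block (edgeR adjusted p = 0.0049), upper-quartile scaling (0.0366) and the 6 libraries alone (0.029), and its adjusted p ranged from 0.00281 to 0.302. PROT2 was not called without replicate 1 of both groups (edgeR adjusted p = 0.0544).

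Most regulators of the nitrate response were higher. Of 35 tested members 25 were called higher and 2 lower (median 0.77), and without nitrate replicate 1 the numbers were 24 and 2. The number lower was 1 without starved replicate 2 or 3 or nitrate replicate 2 or 3. HRS1, a repressor of the NIGT1 family, rose from 2.74, 2.24 and 3.20 to 46.6, 56.3 and 49.2 CPM (4.22 ± 0.19, edgeR adjusted p = 1.07e-11), above its untreated mean of 26.8 CPM. HHO2 of that family went from 10.6, 13.1 and 12.7 to 61.8, 60.5 and 69.9 CPM (2.4 ± 0.10, edgeR adjusted p = 4.91e-12). HHO1 was almost silent in starved seedlings, with 1 read in all 3 libraries against 395 after nitrate, a ratio of 311 with a 95% exact interval of 55.5 to 12300 that covers counting error only. In each nitrate library all 3 repressor genes were higher than in any starved library.

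The BTB and TAZ domain proteins and the LOB domain repressors showed how far members of one family differed. BT2 was at 0.759, 1.04 and 0.768 CPM and rose to 33.9, 34.4 and 37.1 CPM (5.34 ± 0.19, edgeR adjusted p = 3.75e-13), and BT1 went from 4.03, 4.52 and 4.86 to 61.0, 111 and 106 CPM (4.37 ± 0.27, edgeR adjusted p = 3.69e-09). BT3 fell from 5.66, 4.52 and 6.02 to 1.95, 2.68 and 2.97 CPM (-1.09 ± 0.19, edgeR adjusted p = 0.000384), and BT4 and BT5 rose by 0.87 and 1.65. The family thus held both the fourth largest rise by the rule for named genes and a fall. LBD38 went from 13.2, 15.8 and 16.5 to 119, 131 and 139 CPM (3.1 ± 0.12) and LBD39 from 6.13, 8.74 and 7.87 to 55.3, 68.8 and 62.5 CPM (3.03 ± 0.15), both repressors of genes that respond to nitrogen. LBD38 passed its untreated mean of 56.8 CPM in each nitrate library, while LBD39 stayed around its own of 56.3 CPM.

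Among other regulators, the bZIP factors TGA1 and TGA4, which act on nitrate transporter genes in roots, rose from 45.3, 52.8 and 56.6 to 152, 175 and 170 CPM (1.68 ± 0.11, edgeR adjusted p = 3.04e-09) and from 29.2, 31.3 and 30.4 to 72.3, 86.6 and 85.9 CPM (1.43 ± 0.10, edgeR adjusted p = 3.09e-09). Protein kinases of calcium signalling moved less. CIPK8 and CIPK23, which act on nitrate sensing and transport, rose by 0.68 and 0.77, and CPK10, a kinase that phosphorylates NLP7, by 0.69. CPK30 and CPK32 of the same group were at -0.15 and 0.07 and were not called, nor were the root growth regulators TCP20 (0.01) and ANR1 (-0.17). NAC4 and AFB3, which link nitrate to auxin in roots, rose by 1.23 and 0.77.

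The NLP genes were split evenly, with 3 of 9 called higher and 3 lower (median -0.39), and 3 and 4 without nitrate replicate 1. NLP3 was at 22.0, 20.4 and 26.8 CPM in starved and 92.5, 83.4 and 96.8 CPM in nitrate seedlings (1.98 ± 0.13, edgeR adjusted p = 2.67e-09). NLP9 fell from 10.4, 7.02 and 9.03 to 1.66, 1.34 and 2.6 CPM (-2.24 ± 0.25, edgeR adjusted p = 2.57e-06) and NLP8 from 35.8, 31.4 and 35.8 to 14.5, 15.2 and 15.2 CPM (-1.19 ± 0.16, edgeR adjusted p = 1.75e-05). NLP4 is the member that changed with the first library. It stood at 62.5, 68.1 and 66.1 CPM in starved and 65.7, 34.1 and 40.9 CPM in nitrate seedlings, so only replicate 1 was at the starved level, and its log2 fold change was -0.48 with all libraries (edgeR adjusted p = 0.0942) and -0.81 without that one (edgeR adjusted p = 0.00187).

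NIGT1 repressors are known to bind the motif GAATATTC, in their own promoters and in those of NRT2 genes, and the promoters of HRS1, HHO1 and NRT2.4 are shown because they hold it. The 300 bases before each annotated gene start were read from RefSeq's TAIR10.1 and searched for GAATATTC, which is the same on both strands, and the match is in capitals. It lies 236 to 229 bases before the start in HRS1 (chr1:4556578-4556877, plus strand), 138 to 131 in HHO1 (chr3:9412752-9413051, plus strand) and 230 to 223 in NRT2.4 (chr5:24444065-24444364, plus strand).
HRS1: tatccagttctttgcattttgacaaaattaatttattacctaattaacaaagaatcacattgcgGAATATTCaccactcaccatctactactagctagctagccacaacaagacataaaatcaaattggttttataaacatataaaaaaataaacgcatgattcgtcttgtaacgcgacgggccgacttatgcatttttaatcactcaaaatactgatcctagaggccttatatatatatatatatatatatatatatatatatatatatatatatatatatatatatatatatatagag
HHO1: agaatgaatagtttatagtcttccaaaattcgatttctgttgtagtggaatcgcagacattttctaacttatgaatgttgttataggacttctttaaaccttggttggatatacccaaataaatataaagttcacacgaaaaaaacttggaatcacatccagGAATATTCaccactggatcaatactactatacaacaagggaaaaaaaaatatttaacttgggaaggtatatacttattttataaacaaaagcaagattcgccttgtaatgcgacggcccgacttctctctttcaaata
NRT2.4: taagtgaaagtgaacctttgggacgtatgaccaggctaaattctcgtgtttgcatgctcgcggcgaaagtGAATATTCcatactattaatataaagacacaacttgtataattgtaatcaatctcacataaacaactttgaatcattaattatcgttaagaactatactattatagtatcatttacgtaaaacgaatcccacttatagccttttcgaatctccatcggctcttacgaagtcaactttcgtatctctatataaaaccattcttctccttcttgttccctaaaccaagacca
HRS1 and HHO1 share the 15-base run GGAATATTCACCACT, which starts 237 and 139 bases before their starts. The motif was present in 322 of 32834 promoters (0.981%) and in 220 of 21222 promoters of genes tested (1.04%). Among genes called higher it was in 39 of 2384 (1.64%), and in 8 of the 284 called over 4-fold higher (2.82%). It was in 1 of the 319 genes called over 2-fold lower (0.313%). The 2 of 36 regulators with it (5.56%) are HRS1 and HHO1, which are shown because they hold it. Of the 7 genes of the NIGT1 family 2 had a match, HRS1 and HHO1, and of the 7 NRT2 genes 1 did, NRT2.4. HHO2, NRT2.1 and NRT2.2, described among the genes that rose, had none. A match is a description of the letters and not of binding, and none in this window says nothing of the factor.

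Most genes of sulfur uptake and reduction were higher after nitrate. Sulfate is reduced through adenosine phosphosulfate to sulfide and then to cysteine. Of 23 tested genes 13 were called higher and 0 lower (median 0.79), with 14 and 0 without nitrate replicate 1. The root sulfate transporter SULTR1.2 went from 20.6, 27.2 and 26.1 to 116, 87.5 and 93.6 CPM (2.01 ± 0.18, edgeR adjusted p = 2.64e-07). APS1, the ATP sulfurylase that activates sulfate, rose from 615, 577 and 589 to 1070, 984 and 1020 CPM (0.79 ± 0.09), and SIR, the sulfite reductase, from 318, 305 and 316 to 698, 591 and 634 CPM (1.03 ± 0.09, edgeR adjusted p = 8.15e-08). Each of these genes had all nitrate libraries above all starved ones. The reductases APR1 and APR3 rose by 1.16 and 1.45, SERAT2.1, which makes the precursor of cysteine, by 1.01, and SULTR4.1, which releases sulfate from the vacuole, by 0.77. Markers of sulfur starvation were also higher, SDI1 by 1.15, SDI2 by 1.5 and LSU2 by 1.56 (0.98 without nitrate replicate 1), while the sulfurylase gene APS2 and the transporter gene SULTR2.1 were not called (-0.15 and 0.17). The call of LSU2 ended without replicate 1 of both groups (edgeR adjusted p = 0.0503), with the 6 libraries alone (0.116) and with the block in those 6 (0.222), and that of APR3 ended with the block in the 6 libraries (0.0827).

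Of the 33 lists, that of jasmonate genes had the highest share of calls. The lists were chosen with earlier results of these data known, so this order only describes them. Jasmonates are wound and defence hormones whose response is held back by JAZ repressors, which are themselves induced by the hormone. Of 20 tested genes 18 were called higher and 0 lower (median 2.02), against 11.2% and 10.2% of all genes tested, with the same counts without nitrate replicate 1. For synthesis, AOS went from 110, 89.6 and 89.2 to 488, 395 and 441 CPM (2.19 ± 0.22, edgeR adjusted p = 8.17e-07) and OPR3 from 61.8, 61.1 and 53.2 to 194, 293 and 244 CPM (2.05 ± 0.14, edgeR adjusted p = 4.81e-09). For turnover, CYP94C1, which oxidises the active hormone, rose from 4.49, 3.90 and 4.86 to 40.9, 98.4 and 83.4 CPM (4.07 ± 0.33, edgeR adjusted p = 1.78e-07). The first nitrate library was the lowest of the 3 for CYP94C1 and for OPR3, and in all 3 genes the groups were apart. Among repressors JAZ1 went from 72.9, 57.0 and 37.8 to 270, 318 and 294 CPM (2.39 ± 0.38), JAZ7 from 2.1, 1.72 and 1.02 to 12.2, 22.6 and 26.4 CPM (3.64 ± 0.35), and JAZ5 and JAZ9 rose by 2.67 and 1.99. JAZ11 and JAZ12, at -0.19 and 0.26, were the members not called, and MYC2, the factor that JAZ proteins hold back, rose by 1.35. JAZ12 was called higher under 4 of 16 alternatives, among them the replicate block (edgeR adjusted p = 0.0148) and the fit without starved replicate 1 (0.0446).

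Factors that respond quickly to touch, wounding and other stress were also higher, with 17 of 28 called higher and 1 lower (median 0.87), and 14 and 1 without nitrate replicate 1. WRKY40 rose from 5.37, 4.52 and 4.61 to 30.7, 38.1 and 30.3 CPM (2.77 ± 0.31, edgeR adjusted p = 6.44e-06) and WRKY18, its close relative, had a log2 fold change of 2.59 ± 0.25 (edgeR adjusted p = 8.25e-07). TCH4, a cell wall enzyme known for its induction by touch, went from 34.7, 42.3 and 46.5 to 145, 126 and 125 CPM (1.68 ± 0.20). All of these had separate groups in which the order of the nitrate libraries differed from gene to gene. ERF5, an ethylene response factor, was the member that fell, from 11.7, 12.5 and 13.8 to 5.86, 6.32 and 6.13 CPM (-1.06 ± 0.15, edgeR adjusted p = 2.73e-05). WRKY33, WRKY46 and WRKY53 were at 0.12, 0.18 and 0.21 and were not called. Handling of the seedlings when nitrate was added cannot be told apart from nitrate here.

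For cytokinin, a hormone that reports nitrogen supply from root to shoot, 7 of 18 tested genes were called higher and 3 lower (median 0.37), with 2 lower without nitrate replicate 1 and 0 without starved replicate 1. IPT3, which makes the first cytokinin of the pathway, went from 5.72, 9.20 and 6.79 to 30.8, 38.1 and 37.3 CPM (2.28 ± 0.19, edgeR adjusted p = 7.34e-08) and CYP735A2, which makes the form that travels in the xylem, from 2.22, 2.7 and 1.98 to 7.10, 10.6 and 8.87 CPM (1.93 ± 0.23). ABCG14, the exporter that sends cytokinin to the shoot, rose from 37.6, 45.2 and 46.8 to 70.4, 84.2 and 72.2 CPM (0.81 ± 0.14, edgeR adjusted p = 0.000369). In all 3 genes the nitrate libraries lay above the starved ones. Among response regulators induced by the hormone, ARR3 rose from 6.48, 6.66 and 5.31 to 26.9, 29.3 and 26.6 CPM (2.16 ± 0.12, edgeR adjusted p = 2.11e-10) and ARR8 by 0.93, while ARR5, ARR7 and ARR15 were not called (0.39, 0.14 and -1.31). ARR15 was called lower under 2 of 16 alternatives, the 6 libraries alone (edgeR adjusted p = 0.0387) and the replicate block (0.0221).

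Of 28 auxin genes 4 were called higher (14.3%) and 7 lower (25.0%), against 11.2% and 10.2% of all genes tested (median 0.08), so the share of rises was near that of all genes. TAR2, an enzyme of auxin synthesis that acts in root branching at low nitrogen, rose from 11.5, 10.4 and 9.73 to 40.4, 45.5 and 41.3 CPM (2.01 ± 0.12, edgeR adjusted p = 6.11e-10), and the auxin efflux carrier gene PIN7 fell from 122, 95.7 and 118 to 75.0, 66.5 and 74.3 CPM (-0.64 ± 0.10, edgeR adjusted p = 8.34e-05). Both were clear of overlap. PIN4 and the influx carrier gene LAX3 fell by 0.60 and 0.42 on the log2 scale. Of 11 abscisic acid genes 4 were called higher and 1 lower (median 0.47). RD29A, a marker of cold, drought and abscisic acid, rose from 23.2, 21.1 and 20.2 to 165, 204 and 134 CPM (2.96 ± 0.15, edgeR adjusted p = 7.21e-11), and the phosphatase gene PP2CA by 1.03, while the abscisic acid marker RAB18 (0.12) and the synthesis gene NCED3 (-0.55) were not called.

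A short list around CC-type glutaredoxins was mostly higher. These small proteins are known as nitrate-responsive genes, and the list adds CEPH, a phosphatase that activates NRT2.1, and the glutaredoxins that carry the shoot's signal of nitrogen demand. Of 10 tested genes 7 were called higher and 1 lower (median 3.06), with the number lower 0 without starved replicate 1. CEPH went from 7.82, 8.79 and 6.85 to 64.8, 70.3 and 68.3 CPM (3.11 ± 0.14, edgeR adjusted p = 6.72e-12), against an untreated mean of 1.83 CPM. GRXS3 went from 1.05, 0.728 and 0.896 to 11.2, 9.14 and 10.0 CPM (3.5 ± 0.20), close to its untreated mean of 9.54 CPM. In both genes starved and nitrate libraries did not overlap. GRXS3 belongs to a cluster of near-identical copies, so its value is uncertain.

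**Figure D2:**
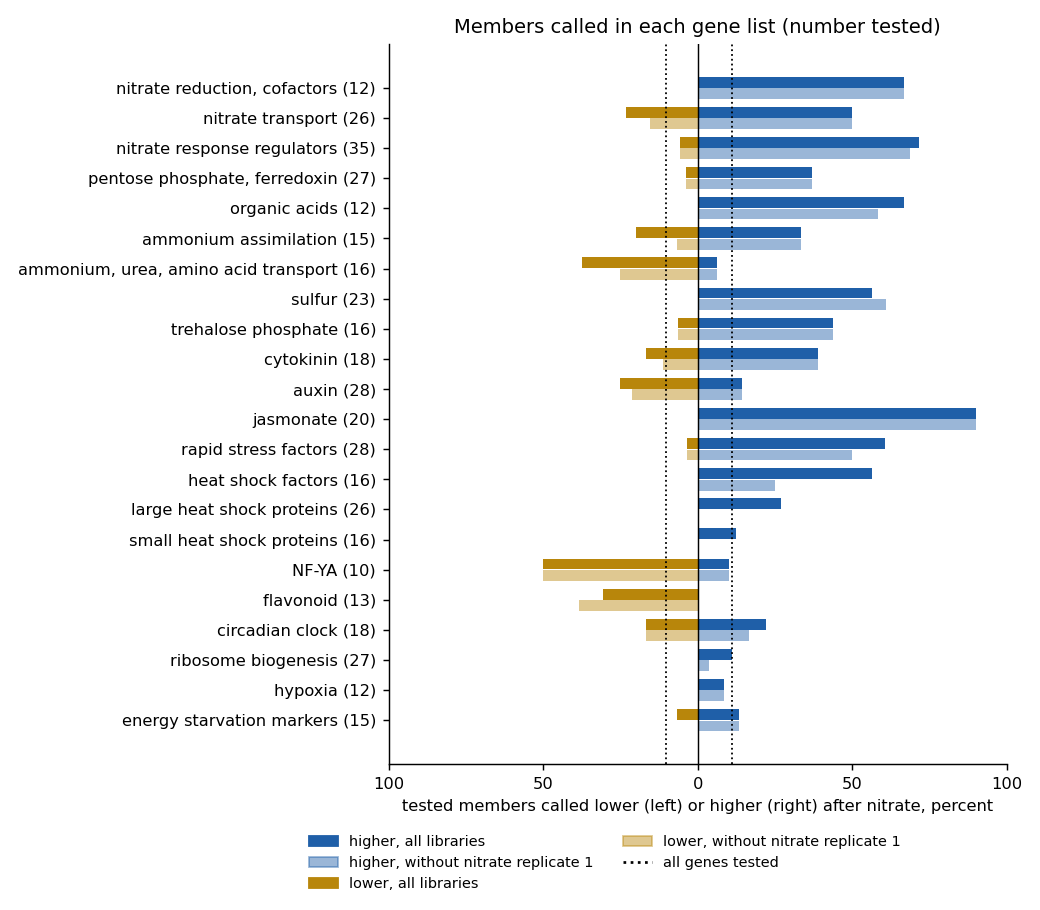
Percent of tested members of 22 gene lists that were called higher (bars to the right) or lower (bars to the left) after nitrate. Dark bars use all libraries, pale bars leave out nitrate replicate 1, and dotted lines mark all genes tested at 11.2% higher and 10.2% lower. The bars of the heat-shock proteins disappear without that library, while those of nitrate reduction (8 of 12) and jasmonate (18 of 20) keep their length.

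Lists for other nutrients and functions had fewer calls, and in these small lists single genes set the share beside the 11.2% higher and 10.2% lower of all genes. Among 16 phosphate genes 1 was higher and 3 lower (1 lower without starved replicate 1). SPX4, a repressor of phosphate starvation responses, rose by 0.83. Among 11 iron genes 2 were higher and 2 lower (1 lower without starved replicate 1 or 2 or nitrate replicate 2 or 3). AHA2, the root proton pump, rose from 525, 680 and 711 to 1540, 1500 and 1580 CPM (1.27 ± 0.11, edgeR adjusted p = 1.17e-07), and the iron reductase gene FRO2 fell by 0.86 on the log2 scale, a call that ended without replicate 1 of both groups (edgeR adjusted p = 0.0864). Of 12 hypoxia genes 1 was higher and 0 lower, HRE1, an ethylene response factor, from 16.5, 16.5 and 24.3 to 56.6, 86.3 and 57.7 CPM (1.81 ± 0.26), while alcohol dehydrogenase ADH1 was at 310, 308 and 488 and 456, 279 and 423 CPM with overlapping groups. Of 27 ribosome biogenesis genes 3 were higher and 0 lower (median 0.22), with 1 higher without nitrate replicate 1 or 2 or starved replicate 1 or 3. The number higher was 11 with the 6 libraries alone or with the replicate block, and 13 with the block in those 6. Aquaporins had 3 of 14 lower and 0 higher (4 lower without nitrate replicate 1, and 1 without starved replicate 3 or nitrate replicate 2 or 3). PIP2.1, a water channel of the plasma membrane, fell from 1110, 1040 and 1400 to 822, 754 and 821 CPM (-0.57 ± 0.13, edgeR adjusted p = 0.00435).

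Of 18 clock genes tested 4 were higher (22.2%) and 3 lower (16.7%, median 0.11), and 3 and 3 without nitrate replicate 1, against 11.2% and 10.2% of all genes. With so few genes each share rests on 3 or 4 members. LUX, a factor of the evening complex, rose from 17.3, 20.5 and 19.5 to 59.2, 51.9 and 51.0 CPM (1.5 ± 0.14, edgeR adjusted p = 3.09e-07), and TOC1, another evening gene, by 0.59. CCA1, a morning gene, fell from 141, 151 and 169 to 92.3, 76.2 and 97.7 CPM (-0.79 ± 0.15, edgeR adjusted p = 0.000589), and LHY, its partner, by 0.67 on the log2 scale. The nitrate libraries of LUX were all above, and those of CCA1 all below, the starved ones. The time of day at which each group was harvested was not used here, and its part in these values was not tested.

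The genes that fell did so by less. By the rule for named genes the largest fall was that of DLAH, a DAD1-like acylhydrolase, from 7.88, 4.63 and 6.02 to 1.19, 0.383 and 0.603 CPM (-3.05 ± 0.42, edgeR adjusted p = 4.18e-05). CHX17, a cation/proton exchanger of roots, followed with 5.66, 7.90 and 11.2 and 0.807, 1.72 and 1.39 CPM (-2.66 ± 0.32, edgeR adjusted p = 5.88e-06). NAP, a NAC factor that promotes leaf senescence, fell from 58.4, 31.0 and 48.9 to 9.99, 6.03 and 8.73 CPM (-2.48 ± 0.40, edgeR adjusted p = 0.000329). The rule takes only genes whose groups do not overlap, so the separation seen in all 3 follows from it. COL2, a CONSTANS-like B-box protein (chr3:487069-489467, minus strand), went from 67.3, 60 and 73.6 to 13.9, 15.8 and 19.4 CPM (-2.03 ± 0.13, edgeR adjusted p = 8.63e-10), and NCED4, a carotenoid cleavage dioxygenase, from 161, 179 and 205 to 26.2, 53.0 and 64.2 CPM (-1.92 ± 0.28). GH3.17, which joins auxin to glutamate, fell from 169, 179 and 165 to 68.5, 51.3 and 47.4 CPM (-1.62 ± 0.13). The groups were apart in these too, again by the rule, and for NCED4 the first nitrate library was the lowest. MOT1, a molybdate transporter, fell from 9.98, 7.90 and 9.35 to 2.89, 3.06 and 3.02 CPM (-1.6 ± 0.21, edgeR adjusted p = 1.14e-05), beside the rise of 3 molybdenum cofactor genes above. Falls were also seen for the factor MYB61 (-1.57), the amino acid transporter gene CAT5 (-1.6) and the chloroplast chaperone gene J20 (-1.55).

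NF-YA subunits, which bind CCAAT boxes and include genes known to rise under nitrogen and phosphate starvation, were among the lists with more falls than rises. Of 10 tested 5 were lower and 1 higher (median -0.29), with 0 higher without starved replicate 2 or 3 or nitrate replicate 2 or 3. NF-YA2 fell from 195, 194 and 190 to 155, 145 and 143 CPM (-0.39 ± 0.07, edgeR adjusted p = 0.000494) and NF-YA7 from 15.8, 15.5 and 16.5 to 9.82, 7.90 and 9.10 CPM (-0.83 ± 0.11, edgeR adjusted p = 1.73e-05). NF-YA4 and NF-YA10 fell by 0.54 and 0.55 on the log2 scale. Of 13 flavonoid genes 4 were lower and 0 higher (median -0.42), with 5 lower without nitrate replicate 1 and 2 without starved replicate 1 or 2 or nitrate replicate 3. MYB12, an activator of flavonol synthesis, fell (-0.88 ± 0.19, edgeR adjusted p = 0.0022). Of the 4 bZIP factors of groups C and S1 tested, which act in energy shortage, 2 were lower, bZIP63 from 40.8, 42.3 and 46.3 to 21.8, 28.2 and 23.9 CPM (-0.81 ± 0.15) and bZIP9 by 0.49 on the log2 scale.

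A pair of gene families was chosen after their values were seen, because several members stood among the falls and rises named above. The genes annotated as B-box zinc-finger proteins, many of which act in light signalling, had 10 of 20 tested called lower and 1 higher (median -0.44), with the same counts without nitrate replicate 1. COL2 and other genes annotated only as CONSTANS-like are not among these 20, so they are not the whole B-box family. BBX16 went from 20.3, 20.6 and 31.4 to 4.50, 6.27 and 8.08 CPM (-1.94 ± 0.22, edgeR adjusted p = 3.47e-06), BBX15 from 70.5, 61.3 and 79.4 to 33, 36.7 and 34.8 CPM (-1.01 ± 0.12, edgeR adjusted p = 2.96e-06) and STO from 358, 313 and 340 to 254, 240 and 264 CPM (-0.42 ± 0.10). Starved and nitrate libraries were separate in each. BBX32, a short B-box protein, fell by 1.62 on the log2 scale, BBX19, BBX30 and BBX31 by 0.86, 0.85 and 1.06, and BBX8 rose by 0.66. Without replicate 1 of both groups STO and BBX8 were not called (edgeR adjusted p = 0.053 and 0.093). The MtN21 family of UMAMIT transporters, of which several export amino acids, had 14 of 43 called lower and 5 higher (median -0.24), with 12 and 4 without nitrate replicate 1. UMAMIT35 was at 0.700, 0.416 and 0.832 CPM and rose to 14.8, 13.4 and 13.5 CPM (4.43 ± 0.24, edgeR adjusted p = 1.59e-10), and UMAMIT36 from 15.2, 11.2 and 15.2 to 47.9, 39.6 and 54.6 CPM (1.78 ± 0.21). UMAMIT45 fell from 25.9, 23.3 and 24.6 to 8.58, 8.61 and 11.1 CPM (-1.38 ± 0.12, edgeR adjusted p = 9.53e-08), and UMAMIT34, UMAMIT46 and UMAMIT47 by 1.16, 1.27 and 1.42 on the log2 scale, UMAMIT47 not being called with the block in the 6 libraries alone (edgeR adjusted p = 0.0645).

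**Figure D3:**
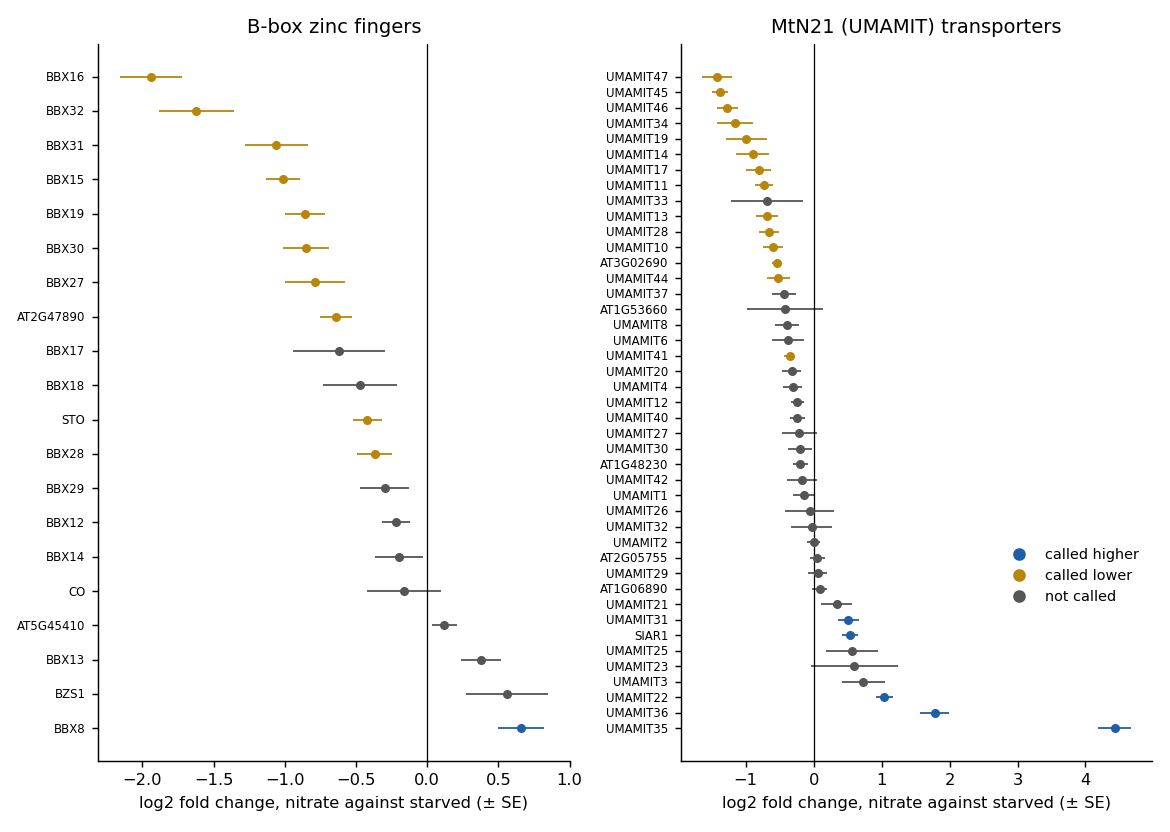
Log2 fold change of nitrate against starved wild type for each tested gene annotated as a B-box zinc finger (20 genes, without those annotated only as CONSTANS-like) or as a member of the MtN21 family (43 genes). In the B-box panel the called members lie left of 0 but for BBX8 (0.66), and in the MtN21 panel UMAMIT35 (4.43) lies farthest to the right and UMAMIT47 (-1.42) farthest to the left.

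Heat-shock genes set nitrate replicate 1 apart from every other wild-type library. Heat-shock proteins are chaperones that keep other proteins from clumping, and heat-shock factors bind heat-shock elements in their promoters. The summed level of 59 genes in the 3 heat lists was 9500, 6840 and 8840 CPM in the starved libraries and 54500, 8770 and 18400 CPM after nitrate, and untreated wild type was at 6880, 7690 and 7480 CPM. These genes took 5.02% of the counted reads of nitrate replicate 1, 0.893% of replicate 2 and 1.82% of replicate 3. The second nitrate replicate was thus inside the starved range, the third above it and the first highest. Replicate 2 was also the lowest of the starved libraries. Between libraries of the same number the nitrate sum was always the higher, also for replicate 2 (8770 against 6840 CPM). The 16 small heat-shock proteins showed the widest gap, 496, 312 and 467 CPM in starved and 6480, 450 and 1140 CPM in nitrate seedlings. In nlp2 after nitrate the 59 genes summed to 43700, 8660 and 12100 CPM, so the first replicate was the highest there too. Labels give a date for 13 of the 18 libraries but for only 1 of the 6 compared. Whether a shared day goes with the first replicates could therefore not be examined in this comparison, and was not tested in the other libraries.

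**Figure D4:**
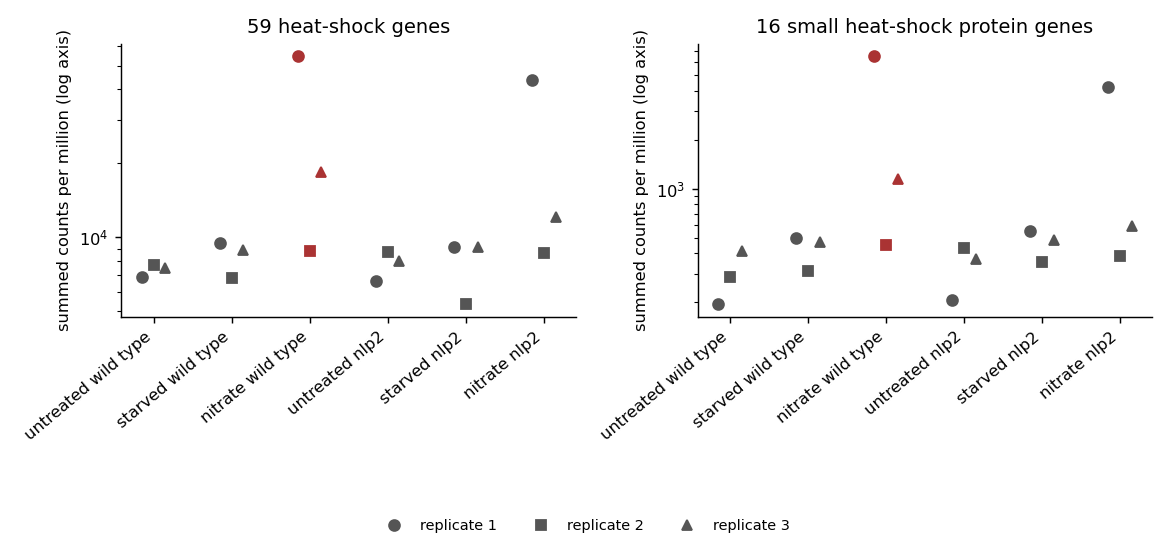
Summed levels (CPM), on log axes, of 59 heat-shock genes (left) and of the 16 small heat-shock protein genes (right) in all 18 libraries, with 1 point for each library and its shape giving the replicate. Wild type after nitrate is in red. Its first replicate, at 54500 and 6480 CPM, is the highest of all, and the first nlp2 replicate after nitrate is next.

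The single genes given here also had their highest level in nitrate replicate 1. Unlike in the sums, all 3 nitrate libraries of HSFA2 and HSP101 were above all 3 starved ones. HSFA2 (chr2:11135624-11137792, plus strand), the factor that sustains the heat response, was at 19.1, 12.1 and 14.5 CPM in starved and 727, 27.9 and 133 CPM in nitrate seedlings. It was called with all libraries (4.28 ± 1.25, edgeR adjusted p = 0.027) and not without nitrate replicate 1 (2.4, edgeR adjusted p = 0.164). HSP101, which takes apart protein aggregates, was at 92.5, 60.8 and 73.5 and 2430, 124 and 546 CPM (3.78 ± 1.1, edgeR adjusted p = 0.0272) and was likewise not called without that library (2.15, edgeR adjusted p = 0.161). Neither gene was called when a starved library was left out, with edgeR adjusted p from 0.0754 to 0.0930 for HSFA2 and from 0.0741 to 0.0931 for HSP101. With the 6 libraries alone both calls ended too (edgeR adjusted p = 0.117 for HSFA2 and 0.118 for HSP101). The small heat-shock protein gene HSP17.4 was at 53.4, 33.5 and 58.6 and 1070, 49.1 and 129 CPM, with 1 nitrate library inside the starved range, and was called in neither fit (3.1 ± 1.23, edgeR adjusted p = 0.099, and 0.88, edgeR adjusted p = 0.681). The chaperone genes HSP70 and HSP90.1 were at 1260, 565 and 1110 and 8680, 761 and 2520 CPM, and at 535, 254 and 428 and 6610, 403 and 1690 CPM. In both, nitrate replicate 2 lay within the starved range, and replicates 1 and 3 above it. HSP90.1 was called where replicate 2 was left out (3.35, edgeR adjusted p = 0.0272), and by DESeq2 with all libraries (adjusted p = 0.0085).

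By list, 2 of 16 small heat-shock proteins were called higher with all libraries and 0 without nitrate replicate 1, with medians of 2.5 and 0.71. Of 26 larger heat-shock proteins 7 were called higher and then 0 (medians 1.4 and 0.51), and of 16 heat-shock factors 9 and then 4 (medians 0.51 and 0.62). None was called lower in either fit. These counts also moved with other libraries, since leaving out starved replicate 1, 2 or 3 left 0 small and 1, 2 and 0 larger proteins and 4 factors each time, and leaving out nitrate replicate 2 raised the counts to 7 small and 14 larger proteins. Without replicate 1 of both groups 0 small and 0 larger proteins and 1 factor were called. HSFA7B had 5 reads over the 3 starved libraries against 242 over the 3 nitrate libraries (ratio 38.1, 95% exact interval 16.1 to 119, counting error only), and its call held without nitrate replicate 1 (log2 fold change 4.23, edgeR adjusted p = 0.0162, against 5.12 with it) and ended without replicate 1 of both groups (3.68, edgeR adjusted p = 0.0617). HSFB2A, a repressor of the family, went from 20.4, 18.7 and 16.1 to 93.4, 26.3 and 61.6 CPM, and DREB2A acts in drought and heat. Without nitrate replicate 1 the log2 fold change was 1.77 for DREB2A (edgeR adjusted p = 0.0187) and 1.26 for HSFB2A (edgeR adjusted p = 0.0313). With that library it was 2.55 ± 0.57 for DREB2A and 1.72 ± 0.41 for HSFB2A. Both calls ended with the 6 libraries alone (edgeR adjusted p = 0.0866 for DREB2A and 0.0962 for HSFB2A) and with the block in those 6 (0.132 and 0.165), and that of HSFB2A also without replicate 1 of both groups (0.0602). The HSFA1 genes, which start the heat response, were not called, at 0.03, -0.19, 0.21 and 0.37.

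Outside the heat lists other stress genes moved with the first nitrate library. AOX1D, a mitochondrial alternative oxidase, was at 2.51, 1.72 and 3.52 CPM in starved and 13.0, 1.2 and 1.86 CPM in nitrate seedlings. PAD3, of camalexin synthesis, was at 2.92, 2.76 and 3.71 and 14.2, 2.15 and 3.20 CPM, and SAG13, a senescence gene, at 12.4, 12.1 and 16.5 and 58.0, 6.89 and 10.6 CPM. In all 3 genes replicate 1 was the highest of the 6 libraries and the other nitrate libraries lay within or below the starved range. Of 10 genes of stress in the endoplasmic reticulum 0 were called (median 0.32, and 0.08 without that library), and 1 without nitrate replicate 2 or 3. The chaperone gene ERDJ3A was at 22.5, 18.3 and 24.1 and 184, 17.5 and 55.4 CPM, highest in replicate 1. With all libraries none of these 4 genes was called by edgeR, and without nitrate replicate 2 PAD3 and ERDJ3A were (1.48, edgeR adjusted p = 0.0181, and 2.47, edgeR adjusted p = 0.0276).

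**Figure D5:**
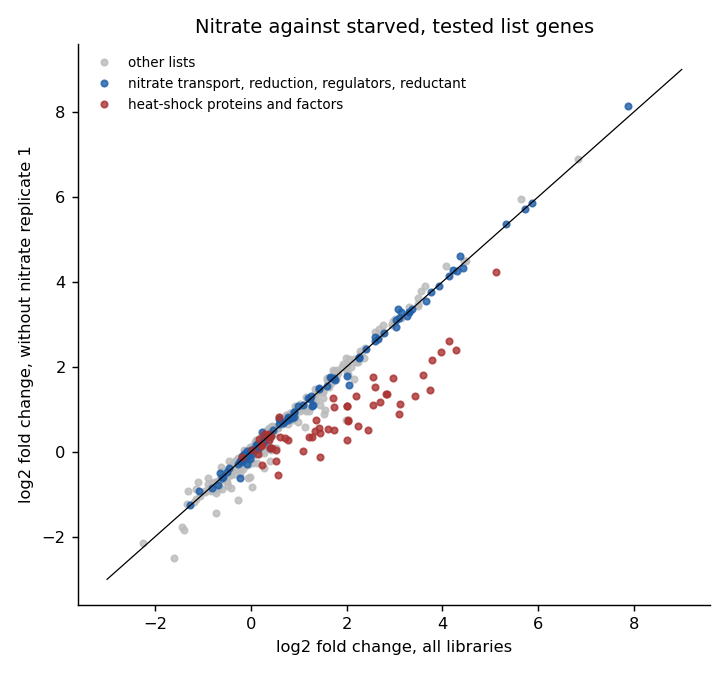
Log2 fold change of the tested list genes with all libraries (horizontal axis) against that without nitrate replicate 1 (vertical axis), with a line of equal values. Nitrate genes lie along the line, as does NIR1 at 5.88 and 5.85. Many heat-shock genes, in red, lie below it, as does HSFA2 at 4.28 and 2.4, but not all heat-shock factors do (medians 0.51 and 0.62).

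The wild-type changes were set beside those of nlp2, which has its own starved libraries and so shares no control with wild type. In nlp2, 1998 genes were called higher (9.36%) and 1971 lower (9.23%). Of the wild-type risers 1778 also rose in nlp2, 74.5% of the wild-type list and 89.0% of the nlp2 list, and of the fallers 1601 (73.7% and 81.2%), with 1 gene called in opposite directions. Across the 21347 genes the log2 fold changes correlated with r = 0.899, a description over genes that are not independent of each other. On the log2 scale NIR1 rose by 5.88 in wild type against 5.87 in the mutant, G6PD3 by 5.72 and 5.39, NRT2.1 by 3.3 and 2.98, and JAZ1 by 2.39 and 2.12. The test of the difference between the genotypes called 0 genes with edgeR's quasi-likelihood test and 2 with DESeq2, and 313 genes had an unadjusted p below 0.05. No change above was therefore called particular to wild type, and a test that misses its threshold does not show that the responses were alike.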

How the data were processed

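Per the labels' protocols, RNA was poly(A)-selected and libraries were stranded and read from 1 end. Per the submitters' processing notes, Bowtie2 and the TAIR10 build were used for alignment, and reads were counted with sam2pkm after removal of reads with equal hits elsewhere, per the file headers (1.93% to 1.97% in these libraries). Versions, annotation and use of strand are not stated there. The authors deposited whole-number counts per gene model, with 14684639 to 25545031 counted reads per library. From these counts edgeR 4.0.16 in R 4.3.3 (filterByExpr with count minimum 10 and total minimum 15, TMM, robust quasi-likelihood, 6 group means over all 18 libraries, 12 residual degrees of freedom) gave log2 fold changes with Benjamini-Hochberg adjustment over 21347 genes. The common biological coefficient of variation was 0.129. Replicates are called biological by the series design. CPM use TMM-scaled library sizes, and TPM, used only to rank genes, use gene lengths. Alternatives were other scalings, no filter, DESeq2 1.42.0, fewer libraries, a replicate block and each library left out.

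Members and the 33 lists (561 genes) were chosen with earlier results of these data known. Named are the 20 called genes with the largest log2 fold change in each direction (genes that carry a symbol, average 5 CPM or more in either group and whose groups do not overlap), members of the lists (up to 8 called per list given with values), and the 15 genes with a symbol that moved most without nitrate replicate 1, from which the text takes examples. No seed storage gene passed the filter. The test was checked on simulated data with independent libraries and the same spread for every gene. That check held no library that stands apart, so it does not cover nitrate replicate 1. Promoters and gene positions are from RefSeq's TAIR10.1.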

Additional observations from a re-analysis of the deposited data

How the results depend on the processing

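The number of genes called higher was 2387, and it was 2362 with RLE size factors, 2010 with upper-quartile scaling, 2117 without a filter, 2506 with DESeq2, 2573 with the 6 libraries alone and 2432 with the 9 wild-type libraries. The number called lower was 2171, and it was 2192, 2795, 2190, 2257, 2424 and 2428 in the same order. Upper-quartile scaling moved the median log2 fold change of all genes by -0.058. Leaving out each library in turn gave 1844 to 2135 genes higher and 1553 to 1788 lower, and leaving out replicate 1 of both groups gave 1718 higher and 1298 lower. The difference between the genotypes was called for 0 genes in each edgeR fit and for 2 with DESeq2. The labels do not say that replicate numbers mark a shared day, and the deviations of same-numbered libraries correlated with r = 0.223, 0.237 and 0.0751, while nitrate replicate 3 was closer to starved replicate 2 (0.0801). Over same-numbered pairs of all 18 libraries r ran from -0.0698 to 0.554. On principal component 3, with 6.37% of the spread of the 18 libraries, replicate 1 was highest and replicate 2 lowest in each of the 6 groups. The main fit holds no replicate term, and the cause of this order was not tested. With the replicate number as a block 2990 genes were higher and 2880 lower, with the block in the 6 libraries alone 3114 and 2956, and with the block but without nitrate replicate 1 (added after the data were seen) 2390 and 2175. DESeq2 called 8 of 16 small heat-shock proteins higher, against 2 with edgeR. Of 151 called genes in the text, 139 were called under all 16 alternatives and no call changed sign. The cause of these shifts was not tested. Depth limits the genes with the fewest reads, such as HHO1, whose ratios carry counting intervals.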

Other observations

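Among the 17 genes called over 32-fold higher, all also called without nitrate replicate 1, several carry no symbol in the annotation and were chosen here after their values were seen. AT5G10210, annotated as a nitric oxide synthase-interacting protein, was at 0.525, 0.468 and 1.09 CPM in starved and 46.6, 39.8 and 40.7 CPM in nitrate seedlings (log2 fold change 5.96 ± 0.25, edgeR adjusted p = 4.16e-12). AT5G52050, of the MATE family of efflux carriers, was at 0.584, 0.520 and 0.512 and 20.8, 33.1 and 28.9 CPM (5.66 ± 0.31, edgeR adjusted p = 1.98e-10), and AT2G22200, a protein with an AP2-type DNA-binding domain, at 0.175, 0.156 and 0.448 and 12.5, 11.7 and 14.4 CPM (5.64 ± 0.25, edgeR adjusted p = 6.77e-12). The starved and nitrate libraries of all 3 were far apart. DDF1 and DDF2, AP2-type factors related to the CBF genes of cold response, had 0 and 1 reads over the 3 starved libraries and 256 and 215 over the 3 nitrate libraries. For DDF1 this is at least 67.2-fold higher, against a floor of 3 counts over the group, and for DDF2 a ratio of 169 with a 95% exact interval of 30.1 to 6720, both for counting error only. SAG21, a late embryogenesis abundant protein of mitochondria, went from 39.8, 28.2 and 33.8 to 661, 596 and 640 CPM (4.22 ± 0.24, edgeR adjusted p = 5.27e-10) and per length of transcript from rank 2770 to rank 53 (71.7 to 1240 TPM). ABR1, an AP2-type repressor of abscisic acid responses, went from 0.642, 1.61 and 1.47 to 20.7, 30.1 and 21.4 CPM (4.26 ± 0.29).

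Families grouped by annotated product were also chosen after values were seen, and their counts stand beside 11.2% of all genes called higher and 10.2% lower. Of 156 tested cytochromes P450, 47 were called lower (30.1%) and 15 higher (9.62%), with 38 and 17 without nitrate replicate 1. Of 60 WRKY factors 14 were higher (23.3%) and 7 lower (11.7%, near the share of all genes), and of 62 calmodulin-like and EF-hand proteins 16 were higher (25.8%) and 5 lower (8.06%), with 14 and 1 without nitrate replicate 1. Of 271 cytosolic ribosomal proteins 23 were higher (8.49%, below the share of all genes in the main fit) and 0 lower. The number higher was 7 without nitrate replicate 1, 8 without starved replicate 3, 12 without starved replicate 2 and 13 without nitrate replicate 2. It was 56 with the replicate block and 85 with the block in the 6 libraries. Both lay above the share of all genes in those fits (2990 and 3114 genes higher). Of 258 pentatricopeptide repeat proteins 4 were higher (1.55%) and 11 lower (4.26%), both below the shares of all genes.

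Of the 33602 gene models 6509 had 0 reads in every library. Among listed genes these were BZIP1, BZIP2, BZIP11, BZIP44, BZIP53, TPPF, TPPG and HSFB1, each beside a model of the same length that was also at 0, as were 342 of the 6509, so their zeros are no measure of expression.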
